A study of Mus musculus with 6 samples.

Results

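The transcripts of 9 genes were followed in mouse liver: the ER stress sensors Ern1, Eif2ak3, Atf6 and Atf6b, the IRE1 substrate Xbp1, and the membrane-bound bZIP factor genes Creb3, Creb3l1, Creb3l2 and Creb3l3. They were chosen by symbol, and all 9 were found among 35540 gene symbols and passed the expression minimum that left 14189 genes for testing. RNA was sequenced from whole liver of 3 Surf4 fl/fl Alb-Cre+ mice (Alb-Cre+ below), in which Cre driven by the albumin promoter deletes the floxed exon 2 of Surf4 in hepatocytes, and of 3 Surf4 fl/fl Alb-Cre- littermates (controls below), which carry the same floxed alleles without Cre. The floxed line is on the C57BL/6J background, the study's methods describe an overnight fast before tissue was taken, the labels give no ages, and each group held 2 males, replicates 1 and 3, and 1 female, replicate 2. Sex and replicate number 2 therefore cannot be told apart. Levels are in TPM, transcript abundance corrected for transcript length and scaled to the same total in every mouse, so that read depth is unknown.

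SURF4 is a receptor that loads selected proteins into vesicles leaving the endoplasmic reticulum (ER). When unfolded proteins build up in the ER, IRE1 (from Ern1) cuts a short intron out of Xbp1 mRNA in the cytoplasm, PERK (from Eif2ak3) phosphorylates eIF2alpha and slows translation, and ATF6 moves to the Golgi, where the site 1 and site 2 proteases release its bZIP domain. CREB3 and its relatives are released by the same proteases, and CREBH (from Creb3l3), a factor of liver and intestine, acts on genes of lipid metabolism in fasting. All of these switches act on existing mRNA or protein, so the level of a sensor's own transcript is not a measure of its activity.

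The Xbp1 site is shown because it sets what the Xbp1 values can tell. IRE1 cuts within a pair of stem loops of the form CNGCNGN, and a search of the annotated Xbp1 mRNAs (GENCODE M21, GRCm38) found 1 such pair, 26 bases apart, that all 3 protein-coding transcripts share. The bases between the cuts, in capitals, lie at chr11:5524279-5524304 on the plus strand, within coding exon 4 of Xbp1-201.
Xbp1-201: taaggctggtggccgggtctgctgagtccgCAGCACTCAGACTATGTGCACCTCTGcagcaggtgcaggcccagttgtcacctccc
joined after removal: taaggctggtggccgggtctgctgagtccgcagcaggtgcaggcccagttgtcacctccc
Read from its start codon, the annotated form holds 267 codons before its stop. Removal of 26 bases, which leaves a remainder of 2 when divided by 3, shifts the frame at codon 160 and gives 371 codons. None of the 4 annotated Xbp1 transcripts held the joined sequence, and the retained-intron transcript Xbp1-202 lacked the site. The fifth Xbp1 transcript of the table is not in this annotation, its sequence was not used here, and it was listed at 0 in 5 of the 6 mice. The Xbp1 TPM below are thus given without a division into cut and uncut mRNA.

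The targeted gene was checked first. Surf4 stood at 92.5, 94.5 and 92.5 TPM in controls 1 to 3 and at 59.0, 71.8 and 54.3 TPM in Alb-Cre+ mice 1 to 3, without overlap between the genotypes. Its log2 difference was -0.60 (SE 0.13), with an adjusted p of 1.00 by limma (unadjusted p = 0.00269). These TPM are summed over all Surf4 transcripts and do not separate mRNA with and without the deleted exon. By quantitative PCR the study found a far larger fall in Surf4 mRNA holding that exon than in total Surf4 mRNA. The 5 hepatocyte markers summed to between 44437 and 63395 TPM, led by Alb. The Kupffer cell markers summed to between 139 and 522 TPM, and cholangiocyte markers to at most 4.06 TPM. The whole-liver signal therefore includes nonhepatocyte cells, and fewer cells of a type cannot be told from less RNA per cell. TPM of a typical gene also differed in level between mice, since median-of-ratios scaling factors ran from 0.868 in Alb-Cre+ replicate 3 to 1.16 in Alb-Cre+ replicate 2.

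The members spanned a wide range of levels, from Creb3l3 to Creb3l1. Over the 6 mice Creb3l3 had the highest mean, 225 TPM, which placed it at the 96.2 percentile of the genes tested, and Xbp1 followed at 113 TPM (93.7 percentile). Creb3 averaged 32.3 TPM and Atf6 13.7 TPM. Atf6b (7.92 TPM), Ern1 (6.11 TPM), Eif2ak3 (5.65 TPM) and Creb3l2 (3.39 TPM) formed a lower group in which the range of each overlapped that of the next. Creb3l1, known mainly from bone and other collagen-secreting tissue, was lowest at 0.526 TPM. The ranges of Creb3l3 and Xbp1 overlapped as well, through the 199.5 TPM of Xbp1 in a single mouse, whereas Xbp1 and Creb3, Creb3 and Atf6, Atf6 and Atf6b, and Creb3l2 and Creb3l1 were separate in all mice.

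**Figure D1:**
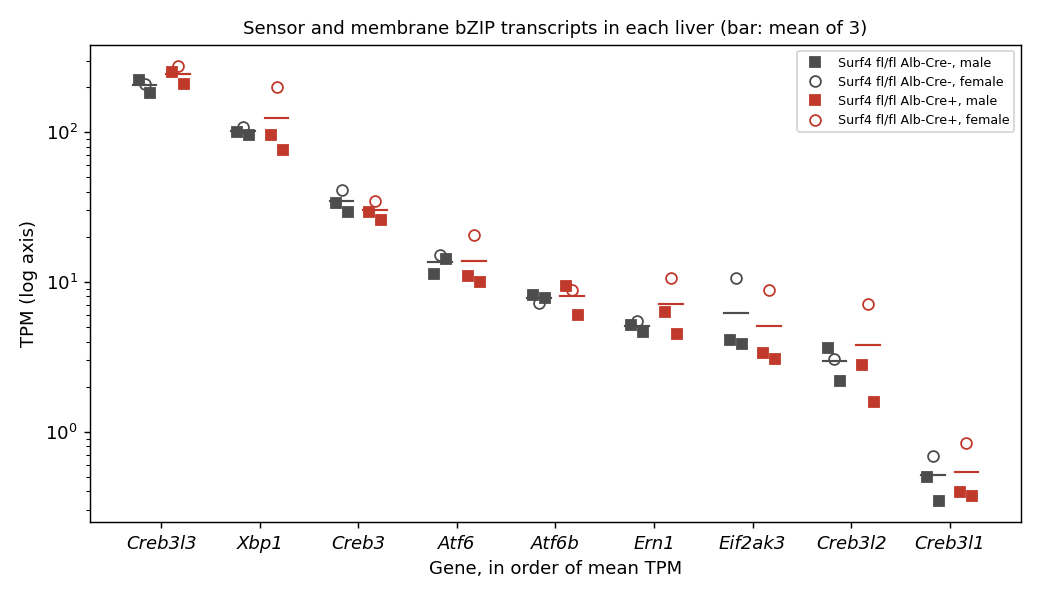
TPM of the 9 genes in each mouse on a log axis, with controls in grey and Alb-Cre+ mice in red, males as filled squares, females as open circles, and the mean of 3 mice as a bar. The genotypes overlap for every gene, and the open red circle is the highest point for 6 of the 9.

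No member passed the test between genotypes. With limma on log2(TPM + 0.1), 0 of the 9 had an adjusted p under 0.01, against 0% of all genes tested, and 0 had an unadjusted p under 0.05, against 1.76% (250 of 14189). The genotypes overlapped for all 9, while 4.9% of all genes had separate groups. Log2 differences of the members ran from -0.29 for Eif2ak3 to 0.39 for Ern1, 6 positive and 3 negative, with a median of 0.03 beside -0.00 over all genes. The adjusted p was 1.00 for each.

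**Figure D2:**
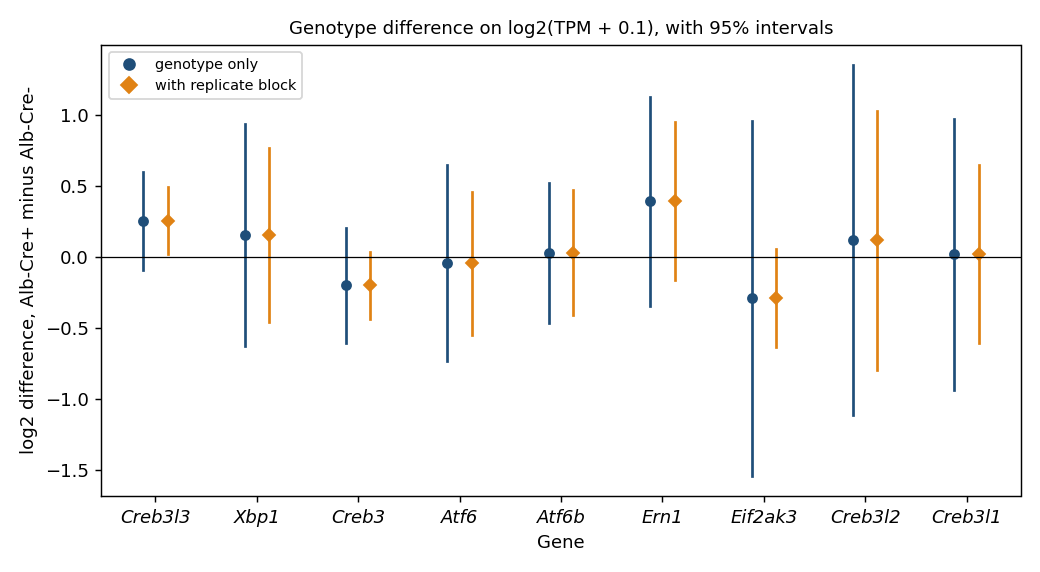
Log2 difference between Alb-Cre+ and Alb-Cre- livers on log2(TPM + 0.1) for the 9 genes, with 95% intervals from the fit with genotype only (circles) and with the replicate number as a block (diamonds). Every interval without the block includes 0, and with the block the Creb3l3 interval starts at 0.02.

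Ern1 (chr11:106394650-106487852, minus strand in GRCm38), the gene of the kinase and RNase IRE1, had 5.19, 5.45 and 4.62 TPM in the controls and 6.26, 10.6 and 4.50 TPM in Alb-Cre+ mice. Both the highest and the lowest mouse were Alb-Cre+. The fold was 1.31 with a 95% interval of 0.787 to 2.19, or 0.39 on the log2 scale (SE 0.31). Without Alb-Cre+ replicate 2 the log2 difference was 0.06, and without replicate 3 of that genotype it was 0.67. Ern2, the gut form of IRE1, was under the expression minimum, at no more than 0.0119 TPM.

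Eif2ak3 (chr6:70844515-70905245, plus strand), the gene of PERK, had 4.07, 10.7 and 3.87 TPM in the controls and 3.36, 8.84 and 3.05 TPM in Alb-Cre+ mice. In each genotype the female stood far above both males, and within each pair the Alb-Cre+ mouse was lower. The log2 differences of the 3 pairs were -0.27, -0.27 and -0.33 from TPM as deposited. After median-of-ratios scaling they lay further apart, at -0.25, -0.41 and -0.19. The fitted log2 difference was -0.29 with an SE of 0.53, and the SE was 0.14 with the replicate block (limma, adjusted p = 0.999). It ran from -0.77 without the Alb-Cre+ female to 0.18 without the control female.

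Atf6 (chr1:170704674-170867771, minus strand) had 11.3, 15.2 and 14.3 TPM in the controls and 10.9, 20.7 and 9.97 TPM in Alb-Cre+ mice. The control values lay inside the range of the other genotype, and the log2 difference was -0.04 (SE 0.29). Atf6b (chr17:34647146-34655074, plus strand), whose product is a weaker activator than ATF6, had 8.22, 7.22 and 7.86 TPM in the controls and 9.42, 8.77 and 6.03 TPM in Alb-Cre+ mice. Its log2 difference was 0.03 (SE 0.21), the narrowest interval among the sensors, with a fold between 0.726 and 1.44. The sign for Atf6 turned without control replicate 2 (0.04), Alb-Cre+ replicate 1 (0.09) or Alb-Cre+ replicate 3 (0.15), and that for Atf6b in 3 such fits, down to -0.09.

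Xbp1 (chr11:5520659-5525893, plus strand) had 100.7, 107 and 96.3 TPM in the controls and 94.8, 199.5 and 76.4 TPM in Alb-Cre+ mice. The controls lay close together, with a mean of 101 TPM (SD 5.63, n = 3), and 1 Alb-Cre+ mouse stood above them while the other two stood below. The fold was 1.12 (95% interval 0.648 to 1.92). Without that mouse the log2 difference turned from 0.16 to -0.25 (limma, adjusted p = 0.953).

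Creb3l3 (chr10:81084324-81098874, minus strand), the gene of CREBH, had 221, 211 and 183 TPM in the controls and 252, 274 and 209.6 TPM in Alb-Cre+ mice. It was the only member higher in Alb-Cre+ liver in all 3 pairs, by 0.19, 0.38 and 0.19 on the log2 scale, a pattern found in 11.5% of all genes. The log2 difference was 0.26 (SE 0.15), with a fold of 1.19 and a 95% interval of 0.941 to 1.52. With the replicate block Creb3l3 became the 1 member of 9 under an unadjusted 0.05 (limma, adjusted p = 0.999), as were 4.69% of all genes.

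Creb3 (chr4:43562332-43567060, plus strand) had 33.5, 40.8 and 29.4 TPM in the controls and 29.4, 34.6 and 26.03 TPM in Alb-Cre+ mice. Like Eif2ak3 it was lower in all 3 pairs, as were 12.4% of all genes, and its log2 difference was -0.20 (SE 0.17). After median-of-ratios scaling the genotypes no longer overlapped for Creb3 (29.81 to 30.01 TPM in Alb-Cre+ mice, 30.7 to 38.7 TPM in controls). The same held for Creb3l3, with 236 to 256 TPM against 191 to 221 TPM. These were 2 of the 9 members, and 5.84% of all genes were separate on that scale.

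Creb3l2 (chr6:37327255-37442146, minus strand), a factor of cartilage secretion, had 3.64, 3.05 and 2.19 TPM in the controls and 2.78, 7.10 and 1.57 TPM in Alb-Cre+ mice. Creb3l1 (chr2:91982328-92024502, minus strand) had 0.501, 0.692 and 0.348 TPM in the controls and 0.398, 0.843 and 0.373 TPM in Alb-Cre+ mice. For both genes the highest value was the Alb-Cre+ female. Their log2 differences were 0.12 (SE 0.52) and 0.02 (SE 0.40), and both turned negative without that mouse, to -0.45 and -0.30. They also turned negative without control replicate 3, to -0.08 and -0.19. Among the related genes Creb3l4 lay at 0.101 to 0.265 TPM, with a log2 difference of -0.53 (SE 0.34), and Crebzf at 8.12 to 11.0 TPM, with a log2 difference of 0.11 (SE 0.17).

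The table lists 35 transcripts for these genes. Of the 34 found in GENCODE M21, 18 were protein coding and 11 were retained-intron forms. A single full-length protein-coding transcript carried most of each gene's TPM: over 90% in every mouse for 6 members, and at least 81.7% for Ern1, 84.3% for Eif2ak3 and 89.4% for Xbp1. Retained-intron transcripts made up 4.29 to 8.68% of Creb3l3 and 1.60 to 3.90% of Xbp1. For the 8 members with several transcripts, the share of the leading transcript did not separate the genotypes (smallest two-sided exact permutation p = 0.6, where 3 against 3 mice allow 0.1).

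Xbp1-201 had 94.3, 96.1 and 91.2 TPM in the controls and 88.3, 178.8 and 72.8 TPM in Alb-Cre+ mice, a log2 difference of 0.16 (SE 0.31). The shorter coding transcript Xbp1-204 had 2.75, 4.77 and 2.41 TPM in the controls and 3.10, 10.7 and 1.70 TPM in Alb-Cre+ mice. In both the Alb-Cre+ female was highest, as for the gene. Across the 41597 transcripts tested, 0 of 23 member transcripts had an adjusted p under 0.01 (0% of all transcripts), and 1 had an unadjusted p under 0.05 (2.84% of all transcripts). It was the retained-intron transcript Creb3-205, at 0.797 and 1.33 TPM in control replicates 1 and 2 and listed at 0 in the other 4 mice.

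The pairs of equal replicate number differed in direction. In the females, Alb-Cre+ minus control was 0.89 for Xbp1, 0.44 for Atf6, 1.19 for Creb3l2 and 0.95 for Ern1 on the log2 scale. In the male pairs Xbp1 stood at -0.09 and -0.33, Atf6 at -0.05 and -0.52, Creb3l2 at -0.38 and -0.46, and Ern1 at 0.26 and -0.04. Higher in the female pair and lower in both male pairs thus held for Xbp1, Atf6 and Creb3l2, which is 3 of 9 members, and for 26.6% of all genes. Part of this spread was shared with genes in general: the median over all genes was -0.02, 0.15 and -0.14 in the 3 pairs, and after median-of-ratios scaling Xbp1 stood at -0.07, 0.75 and -0.19.

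**Figure D3:**
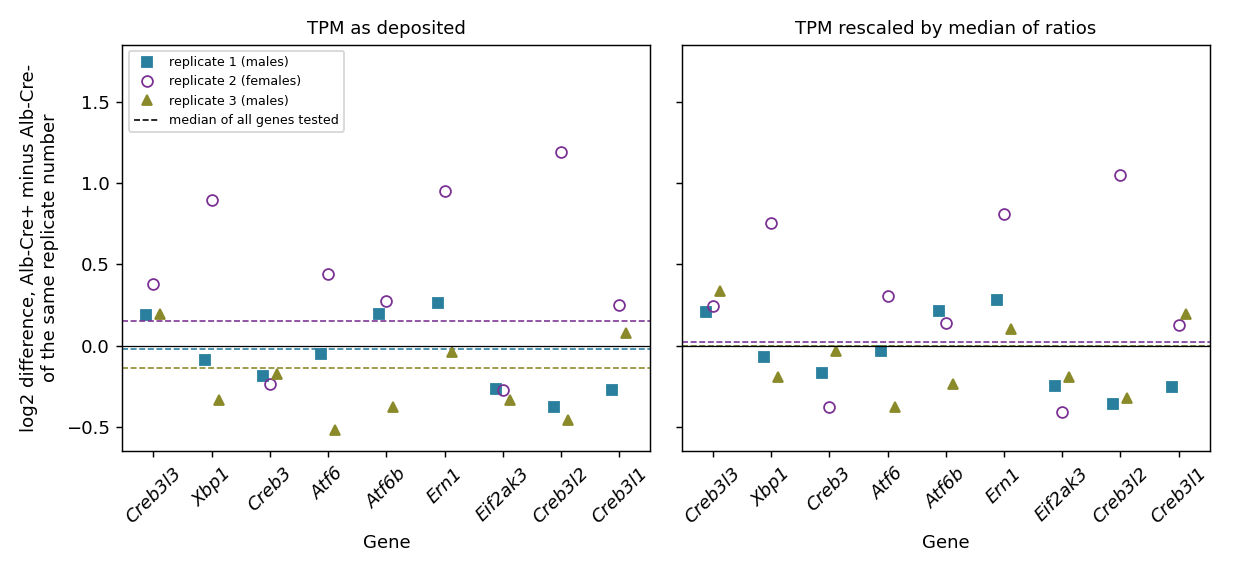
Log2 difference, Alb-Cre+ minus control, within each replicate number for the 9 genes, from TPM as deposited (left) and after median-of-ratios scaling (right), with dashed lines at the median of all genes in each pair. The female pair is at 0.89 for Xbp1 and 1.19 for Creb3l2, above both male pairs, and scaling moves these to 0.75 and 1.05.

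The difference between the sexes in the genotype effect was tested as an interaction. For Xbp1 it was 1.10 on the log2 scale (limma, unadjusted p = 0.00998, adjusted p = 0.775), the only member under an unadjusted 0.05, where 6.08% of all genes were. After scaling the estimate for Xbp1 was 0.88. The estimates for Creb3l2 (1.61) and Ern1 (0.84) were not under 0.05 (adjusted p = 0.775 for each). No gene among the 14189 had an adjusted p under 0.01 in this test, in which 862 had an unadjusted p under 0.05 and each genotype has 1 female, assumed to vary like the males. The Alb-Cre+ female was the highest of the 6 mice for 6 of 9 members and for 45.8% of all genes, and after scaling for 5 of 9 and 25.8%.

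Eif2ak3 stood apart in its difference between females and males. Both females, at 8.84 and 10.7 TPM, lay above all 4 males, at 3.05 to 4.07 TPM. Females lay above all males for 5 of 9 members and 36.6% of all genes, and after scaling for 3 of 9 and 22%. With genotype in the fit the log2 difference was 1.42 (SE 0.15), a fold of 2.68, with an adjusted p of 0.0101, just above the threshold of 0.01 that 0.514% of all genes passed. It was 1.21 after scaling (adjusted p = 0.0117). With a pseudocount of 1 TPM the adjusted p was 0.00939, and with only genes of at least 1 TPM it was 0.00795, so this call depended on the setting. With a mouse left out the log2 difference stayed between 1.39 and 1.45, with adjusted p-values from 0.0221 to 0.146 (limma).

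Atf6, Xbp1, Creb3 and Creb3l1 were also higher in females at an unadjusted p under 0.05, with log2 differences of 0.62, 0.68, 0.35 and 0.78 and adjusted p-values from 0.112 to 0.138 (limma). For Xbp1 the difference was 0.13 without the Alb-Cre+ female and 1.23 without the control female. With Eif2ak3 these were 5 of 9 members, where 25.6% of all genes were called in that direction. After scaling 2 of 9 remained under 0.05, Eif2ak3 and Creb3l1, against 15.6%. Summed markers of 4 other cell types were higher in both females than in all males. The 6 Kupffer cell markers summed to 500 and 522 TPM in the females and to between 139 and 218 TPM in the males, the 6 stellate cell markers to 236.5 and 249 TPM against 88.8 to 183 TPM, and the 5 sinusoidal endothelial markers to 148 and 171 TPM against 68.5 to 116 TPM. Plasma and B cell markers summed to 33.4 and 42.7 TPM against 7.02 to 24.2 TPM. Cholangiocyte markers did not follow, with 3.23 and 3.40 TPM in the females inside the male range of 2.24 to 4.06 TPM. Both females lay above all males for 6 of 6 Kupffer cell, 4 of 6 stellate cell and 4 of 5 endothelial markers. For plasma and B cells it was 6 of the 7 markers tested. That held for 36.6% of all genes, and for 22% after scaling. The marker values are given without scaling. The stellate cell marker Ngfr had a lower mean in females (0.435 TPM) than in males (0.703 TPM). None of these markers was listed at 0 in all mice. Their part in the member differences was not tested.

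**Figure D4:**
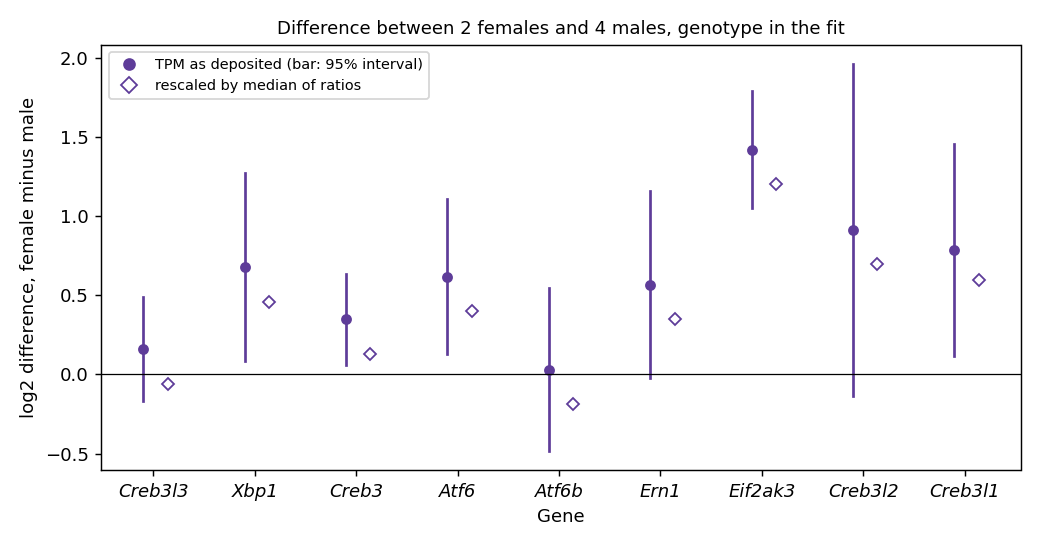
Log2 difference of the 2 females from the 4 males for the 9 genes, with genotype in the fit, from TPM as deposited (filled circles, bars for 95% intervals) and after median-of-ratios scaling (open diamonds). Eif2ak3 has the highest estimate, 1.42 and 1.21, and scaling brings Creb3l3 and Atf6b below 0, to -0.06 and -0.18.

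The genes that act around the sensors were grouped into 10 lists with 103 distinct genes tested. All lists were compiled with earlier results of these data known, so their counts are a description and not a test. None of the 103 genes had an adjusted p under 0.01 (limma), while 11 were under an unadjusted 0.05, beside 1.76% of all genes. With the replicate block 18 were, beside 4.69% of all genes. CREBH targets made up 6 of the 11 and 10 of the 18. Among all genes 49.6% had a positive difference.

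Targets of ATF6, mostly ER chaperones, had positive differences for 11 of 12 genes, with a median of 0.35, and 2 were under an unadjusted 0.05 (1.76% of all genes). With the replicate block 4 were, Hspa5 and Pdia6 being added (4.69% of all genes). Hsp90b1, an ER chaperone, had 288, 250.5 and 277 TPM in the controls and 353, 423 and 302 TPM in Alb-Cre+ mice. These groups did not overlap, and the log2 difference was 0.39 (SE 0.15, adjusted p = 1.00). Sdf2l1, which works with the chaperone BiP, had 20.6, 12.4 and 24.3 TPM in the controls and 35.5, 39.1 and 26.6 TPM in Alb-Cre+ mice. Its log2 difference was 0.85 (SE 0.28), and the groups were again separate. With Pdia6 these made 3 genes of the list with separate and higher groups, as 2.18% of all genes had. Herpud1, an ER-associated degradation gene, was the negative member, at -0.45 (SE 0.21). It had 343, 417 and 614 TPM in the controls and 339, 320.4 and 319.8 TPM in Alb-Cre+ mice, so that its groups were separate too, with lower values, as were those of 2.71% of all genes. In males only the list median was 0.03, a setting added after the data were seen, and without the control female it was 0.18.

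BiP itself, from Hspa5, holds all 3 kinds of sensor inactive. It had 343, 359 and 321 TPM in the controls and 452, 627 and 346 TPM in Alb-Cre+ mice, a log2 difference of 0.44 (SE 0.22, adjusted p = 1.00). Pdia6, which attenuates IRE1 and PERK, had a log2 difference of 0.44 (SE 0.20), and the ubiquitin ligase gene Syvn1 of 0.34 (SE 0.22). Over the 11 genes whose products bind or inhibit the sensors 5 were positive and 6 negative, with a median of -0.02. With the replicate block 2 of them, Hspa5 and Pdia6, were under an unadjusted 0.05 (limma), as were 4.69% of all genes. Both were already counted among the ATF6 targets.

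Targets of spliced XBP1 were divided in direction: 13 of 22 were positive, with a median of 0.03. Derl3, a component of ER-associated degradation, was the exception. It had 0.977, 0.590 and 0.822 TPM in the controls and 5.62, 6.25 and 14.4 TPM in Alb-Cre+ mice, and the lowest of these was far above the highest control. Its log2 difference was 3.19 (SE 0.40, adjusted p = 0.456), in a limma fit where no gene had an adjusted p under 0.01. The study, using DESeq2, reports Derl3 as the most significantly upregulated gene. Sdf2l1, which is on this list too, was the only other member of it under an unadjusted 0.05 (1.76% of all genes), and Creld2 followed with 0.38 (SE 0.24).

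Targets of PERK and ATF4 had a median of -0.22, with 12 of 18 negative. Ddit4, an inhibitor of mTORC1, had 45.4, 45.4 and 72.1 TPM in the controls and 43.5, 28.7 and 12.7 TPM in Alb-Cre+ mice, a log2 difference of -1.07 (SE 0.44, adjusted p = 1.00). Asns, for asparagine synthetase, had a log2 difference of -1.44 (SE 0.60, adjusted p = 1.00). It was high in a single control, replicate 3, at 17.1 TPM, and between 1.62 and 5.64 TPM elsewhere. Chac1 had -0.83 (SE 0.47). Under an unadjusted 0.05 the list held 2 genes in both fits. Without the replicate block they were Ddit4 and Asns (1.76% of all genes). With it they were Chac1 and Slc3a2 (limma, adjusted p = 0.999 and 0.800), beside 4.69% of all genes. The list median ran to 0.01 without Alb-Cre+ replicate 3 and to -0.09 without the control female.

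Targets of CREBH had the list median farthest from 0, and Creb3l3 itself was not lower in any pair. Of 15 genes, 14 were negative and G6pc was at 0.01, with a median of -1.02, 11 were lower in all 3 pairs (12.4% of all genes), and 6 had separate groups with lower values (2.71% of all genes). Elovl2 and Fads2 make long polyunsaturated fatty acids. Elovl2 had 264, 312 and 230.1 TPM in the controls and 86.2, 83.0 and 54.2 TPM in Alb-Cre+ mice. Fads2 had 189, 218 and 174 TPM in the controls and 73.2, 88.5 and 52.5 TPM in Alb-Cre+ mice. For both the controls were all above the other genotype, with log2 differences of -1.87 (SE 0.21, adjusted p = 0.456) and -1.47 (SE 0.21, adjusted p = 0.607). Apoa4, an apolipoprotein gene, had 1161, 3344 and 1147 TPM in the controls and 224, 369 and 62.6 TPM in Alb-Cre+ mice, a log2 difference of -3.25 (SE 0.70, adjusted p = 1.00). The list was compiled with earlier results of these data known, many of its genes also respond to other factors of lipid metabolism, and 6 passed an unadjusted 0.05 (1.76% of all genes), or 10 in the fit with the replicate block (4.69% of all genes). The median was -0.60 without Alb-Cre+ replicate 3 and -0.67 without the control female.

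**Figure D5:**
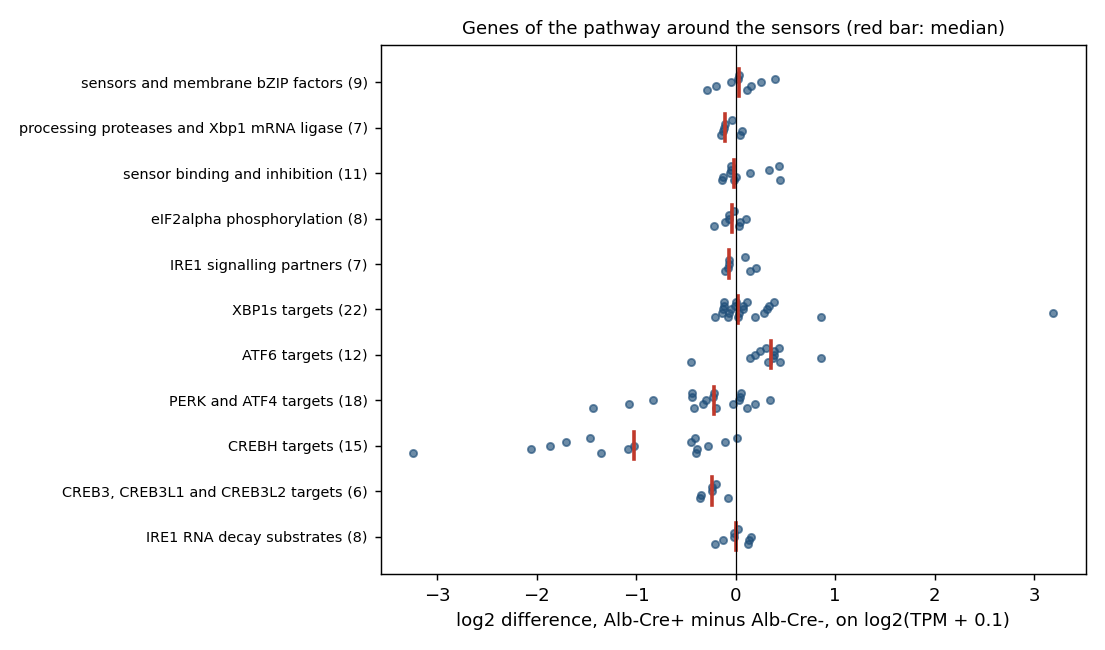
Log2 difference between Alb-Cre+ and Alb-Cre- livers for each gene of the lists (points, number of genes tested in brackets) and list medians (red bars). The medians lie between -0.23 and 0.03 except for ATF6 targets at 0.35 and CREBH targets at -1.02.

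The other lists had medians between -0.23 and 0.00. Targets of CREB3, CREB3L1 and CREB3L2, which serve vesicle transport and collagen secretion, were negative for all 6 genes, with a median of -0.23 and none under an unadjusted 0.05. With the replicate block 1 of them, Arf4, was under it (limma, adjusted p = 0.914), as were 4.69% of all genes. Arf4 was also the only gene of this list lower in all 3 pairs, as were 12.4% of all genes. The list medians in pairs 1 to 3 were -0.39, 0.09 and -0.43, so the female pair did not follow. Arf4 had -0.35 (SE 0.20), Sec23a -0.23 (SE 0.16) and Mia3 -0.23 (SE 0.16). RNAs that IRE1 is known to degrade had 4 positive and 4 negative differences between -0.21 (Sparc) and 0.16 (Hgsnat). The proteases and the Xbp1 mRNA ligase complex had a median of -0.11, regulators of eIF2alpha phosphorylation of -0.04, and IRE1 signalling partners of -0.06. In these last 4 lists no gene had an unadjusted p under 0.05. The smallest p-values belonged to Hgsnat, Sparc and Pdgfrb, to Rtraf, Zbtb8os and Ddx1, to Eif2ak1 (-0.22, SE 0.13), Ppp1r15b and Eif2s1, and to Bak1, Bax and Tmbim6.

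Genes whose levels followed a member most closely were read from Pearson's r over the 6 mice among 10635 genes of at least 1 TPM, as a description. For Xbp1 these were Nr3c1, the glucocorticoid receptor gene (r = 0.998), Arpin (0.997) and Marcksl1 (0.996). Nr3c1 had 13.2, 13.7 and 12.4 TPM in the controls and 12.8, 21.9 and 10.6 TPM in Alb-Cre+ mice, with the same mouse highest as for Xbp1. For Creb3l3 they were Ece1 (0.995), Oplah (0.987) and Ccdc134 (0.985), and for Ern1 they were Nemf (0.997), Cnot1 (0.993) and Hmbox1 (0.992). Among the members the highest r were 0.946 for Xbp1 with Creb3l2 and 0.935 for Xbp1 with Ern1. All of these share the high values of the Alb-Cre+ female, and TPM of 1 mouse share a scaling.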

How the data were processed

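Liver RNA sequencing of 6 mice was used. The authors deposited TPM per transcript and mouse. The table is labelled as Salmon output, while the methods name STAR and RSEM, and versions are not given in the sources used here. Transcript version numbers are later than those of GENCODE M21. A second deposited table, with the authors' DESeq2 log2 fold changes, p-values and mean counts, was not used. TPM hold no read numbers, so depth is unknown and no count test was run.

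TPM were summed per gene symbol, leaving out 163 of 116748 transcripts without a symbol (0.0515 to 0.0887% of TPM). Genes averaging 0.1 TPM or more over the 6 mice were tested in limma 3.58.1 on log2(TPM + 0.1) (R 4.3.3, variance trend, genotype only, Benjamini-Hochberg over all genes, threshold 0.01). The code was tested on simulated data. P-values of the genotype fit measure the spread between 3 mice of each genotype. With the replicate block they measure the spread of the 3 pair differences. In the sex fit they measure the spread between mice of the same sex, with genotype in the fit. In the interaction fit they measure the spread between the males of each genotype. Same-numbered mice deviated together (correlations 0.367, 0.588 and 0.37). Mice of different numbers were not compared, and sex follows the replicate number, so these values do not show that same-numbered mice were pairs. The replicate block is given where it changed a call or a list's count. Controls were littermates, but the sources used here do not say whether same-numbered mice were. Sequences come from GENCODE M21 on GRCm38, matched by transcript identifier without version. At most 0.401% of a member's stretches of 31 bases occur in another gene.

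Members and lists were chosen with earlier results of these data known. Named genes are the 9 members, the 3 of each list with the smallest p, the 3 most like Xbp1, Creb3l3 and Ern1, and genes a result turns on. Creb3l4, Crebzf, Ern2, Herpud1, G6pc, Slc3a2, Ngfr and the Creb3-205 transcript were named after their values were seen. Alternatives were a replicate block, a term for sex, other pseudocounts and minimums, median-of-ratios scaling, no trend, and each mouse left out. Males only, and the alternatives for sex and its interaction, were added after seeing the data.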

Additional observations from a re-analysis of the deposited data

Results flagged for a closer look

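Atf6, Xbp1 and Creb3l2 were higher in the Alb-Cre+ mouse of the female pair and lower in that of both male pairs. The female difference was 0.44 for Atf6, 0.89 for Xbp1 and 1.19 for Creb3l2 on the log2 scale. The interaction of sex and genotype was 0.73, 1.10 and 1.61, each with an adjusted p of 0.775 (limma). The same split was found in 26.6% of all genes tested, and each genotype has a single female.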

How the results depend on the processing

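No member had an adjusted p under 0.01 for genotype under any alternative that was run. Members with an unadjusted p under 0.05 numbered 0, 1 with the replicate block and 1 with the replicate block and median-of-ratios scaling (Creb3l3 in both), and 0 to 2 with a mouse left out (Ern1 and Creb3l3 without Alb-Cre+ replicate 3). Genes under 0.05 numbered 250, and 666 with the replicate block, 531 with sex as a covariate, 442 without a filter, 774 with block and scaling, 522 in males only and 183 to 506 with a mouse left out. The highest of these was without Alb-Cre+ replicate 2. Genes with an adjusted p under 0.01 numbered 0 to 1 with a mouse left out, 1 without Alb-Cre+ replicate 1. Listed genes under 0.05 numbered 11, and 18 with the block, 17 with sex, 17 with block and scaling and 8 to 15 with a mouse left out. Members with a sex difference at an adjusted p under 0.01 numbered 0, and 1 with a pseudocount of 1 TPM or a minimum mean of 1 TPM. The replicate block changed no other call on a member.

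In males only the log2 difference turned to -0.091 for Atf6b, -0.21 for Xbp1 and for Xbp1-201, -0.10 for Creb3l1 and -0.42 for Creb3l2. With a mouse left out it ran from -0.37 to 0.15 for Atf6, -0.091 to 0.23 for Atf6b, -0.77 to 0.18 for Eif2ak3, -0.25 to 0.44 for Xbp1, -0.30 to 0.22 for Creb3l1, -0.45 to 0.60 for Creb3l2 and -0.23 to 0.42 for Xbp1-201. Ern1, Creb3 and Creb3l3 kept their direction in all 15 alternatives. In this balanced design the replicate block, the term for sex, the other minimums and the fit without a trend cannot change an estimate. Those settings therefore could not turn a direction. The interaction for Eif2ak3 was 0.03, and -0.19 with median-of-ratios scaling and -0.0070 with a pseudocount of 1 TPM. The cause was not tested in any of these. With 3 mice a genotype, the intervals of the members allow folds as wide as 0.344 to 1.94 for Eif2ak3.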
